A study of Mus musculus with 12 samples.

Results

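The 92 genes described here are the nuclear genes of mitochondrial oxidative phosphorylation, chosen by name alone: symbols that begin with Nduf, Uqcr, Atp5 or Cox followed by a number from 4 to 8, and Sdha, Sdhb, Sdhc and Sdhd. They are 92 of 23688 different gene names in the tables. The rule matched 93 lines, because Ndufb9 is listed 2 times, and the line with the higher mean was kept. Of the 92 genes 74 encode subunits, 36 of complex I, 4 of complex II, 8 of complex III, 11 of complex IV and 15 of complex V. The others are 7 assembly factors of complex I (Ndufaf1 to Ndufaf7), 8 isoforms of complex IV subunits known from other tissues, Cox7a2l, and Atp5s and Atp5sl, whose names match although they are not subunits. The subunits encoded in mitochondrial DNA were not analysed here.

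RNA was measured in 12 mouse liver libraries, 3 in each of 4 groups that combine a genotype with a tissue. The genotypes were wild type (WT) and knockout (KO) of Setd2, which encodes the enzyme that trimethylates lysine 36 of histone H3. Normal liver came from untreated male mice 8 months old. Tumors came from mice that received 1 intraperitoneal dose of diethylnitrosamine (DEN, a liver carcinogen) of 25 mg/kg at 2 weeks of age and were also sampled at 8 months, so tumors and normal livers differ in carcinogen as well as in tissue. The 4 groups are thus WT normal liver without DEN, KO normal liver without DEN, WT tumor after DEN and KO tumor after DEN. Sample titles call the knockout cKO, and the labels do not spell this out or name a Cre driver or the cell type that lost the gene. Nothing in the labels says whether libraries of a group are from separate animals, so the p-values below reflect sample-to-sample spread that may be technical in part.

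Oxidative phosphorylation passes electrons from NADH (complex I) and succinate (complex II) through ubiquinone, complex III, cytochrome c and complex IV to oxygen. Complexes I, III and IV pump protons across the inner mitochondrial membrane, and complex V, the ATP synthase, uses the gradient to make ATP. Hepatocytes are rich in mitochondria, and the nuclear subunit genes are held to be activated together by factors such as NRF1, the ETS family factor GABP, YY1 and the estrogen-related receptor alpha.

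Values are FPKM (sequenced fragments of a gene, divided by transcript length in kilobases and by the number of mapped fragments), which can be compared between genes as levels per length. Tests used log2(FPKM + 1) in limma, and changes are log2 differences ± SE on that scale, which understates the change of genes with low FPKM. A gene was called up or down at an adjusted p below 0.05 (Benjamini-Hochberg) over the 11671 entries kept, those at 1 FPKM or more in 3 or more of the 12 libraries. All 74 subunits passed this filter, as did 88 of the 92 genes. The 4 that did not are the isoform genes Cox4i2, Cox6a2, Cox7b2 and Cox8c.

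Across the series, FPKM values of a library summed to 423498 to 719538, and every WT tumor (495141 to 596624) and KO tumor (423498 to 626303) had a lower sum than every normal liver (641848 to 719538). Setd2 ranged from 3.84 to 4.84 FPKM over WT livers and from 1.32 to 1.93 over KO livers (-1.05 ± 0.14, limma adjusted p = 0.0108), and at 3.61 to 4.40 in WT tumors and 1.90 to 3.14 in KO tumors (-0.57 ± 0.19, limma adjusted p = 0.188). The labelled tissue was checked with 8 hepatocyte genes. Their summed FPKM was 32308 to 46642 in the libraries of the first 3 groups and 20513, 18057 and 29117 in KO tumors 1, 2 and 3. Apoa1 alone was at 8808 to 11310 in WT livers and 19940 to 27242 in WT tumors. Fabp1, Cps1, Hnf4a and Fgb were lower in every WT tumor than in every WT liver, and Apob, Ttr and Apoc3 overlapped. The median change of the 8 genes in WT tumors against WT livers was -0.51. Macrophage genes summed to 564 to 799 in KO tumors and 158 to 438 in the other libraries, and stellate cell genes to 166 to 261 and 41.6 to 116. The macrophage genes Clec4f and Marco did not follow their sum. Clec4f was at 12.5, 2.55 and 89.7 in KO tumors 1, 2 and 3 and 32.1 to 51.5 in normal livers. Marco was at 1.53, 0.42 and 15.5 in these tumors and 1.10 to 15.0 in normal livers. Cholangiocyte genes ran from 35.9 to 640.0 in 11 libraries and reached 3519 in KO tumor 2, of which Spp1 alone was 3505. There Sox9 (11.5) was also above normal livers, while Krt19 (1.01), Krt7 (0.40) and Epcam (1.98) lay within their range. Libraries of KO tumors also resembled one another least (r of 0.924 to 0.942 across entries, at least 0.949 in the other groups). In whole tissue, fewer cells of a type and less RNA per cell cannot be told apart, and the part of these differences in the values below was not tested.

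In WT normal liver the level of the 74 subunits ran from 21.3 FPKM for Ndufa11, a complex I subunit, to 937 for Ndufa4, which was found as a complex I protein and sits in complex IV. The median over subunits was 203. By complex, the median of the group means was 130.1 for complex I, 204 for complex II, 364 for complex III, 549 for complex IV and 342 for complex V. Ndufs1, a core subunit of complex I that carries iron-sulfur clusters, was at 53.4. The assembly factors of complex I, which are not part of the finished complex, were far lower, from 3.77 for Ndufaf5 to 22.7 for Ndufaf2. The extremes were the same genes in KO normal liver for complex I at its low end (Ndufa11, 28.5), whereas Uqcrq of complex III was the highest subunit there (1285) and in both tumor groups (800 and 631).

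In normal liver, the RNA of many subunits was modestly higher in KO than in WT. The 92 genes made up 3.27, 3.20 and 3.02% of the summed FPKM of WT livers 1, 2 and 3 and 3.75, 4.49 and 3.90% of that of KO livers 1, 2 and 3, so the groups do not overlap. Among 88 genes tested 23 were up and 1 was down, while 9.33% of all tested entries were up and 8.77% down. KO livers lay above all WT livers for 61 of the 88, against 21.9% of all entries, and below them for 1, against 20.7%. The median change was 0.34, and it was 0.03 over all tested entries. By complex, 14 of 36 rose in complex I, 0 of 4 in complex II, 3 of 8 in complex III, 2 of 11 in complex IV and 3 of 15 in complex V, and the only fall was in complex II. The summed FPKM of 7 stellate cell genes was 41.6 to 64.4 in WT livers and 71.0 to 116 in KO livers. Dcn made up most of it, at 34.0 to 47.8 and 57.7 to 99.2. Reln and Des were also higher in every KO liver, and Col1a1, Col1a2, Col3a1 and Lum overlapped. Of the 7 stellate cell genes 1 was up, and of 8 hepatocyte genes 1 was up and 2 were down. The part of these marker genes in the rise was not tested.

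**Figure D1:**
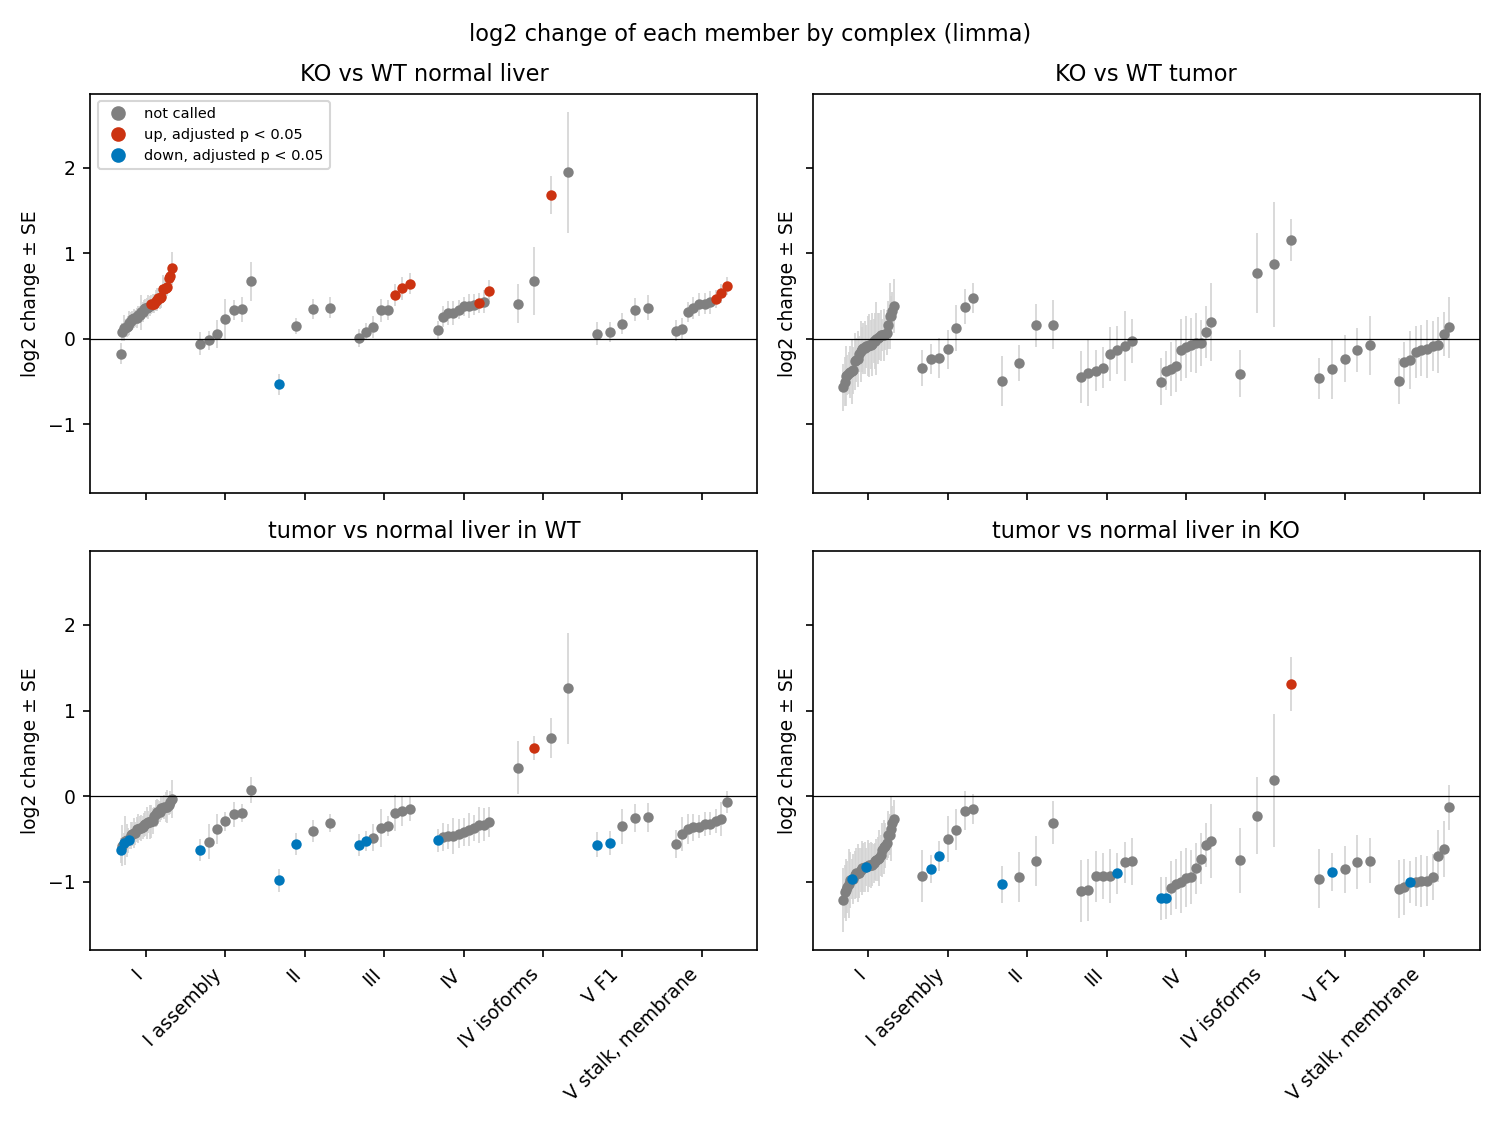
log2 change ± SE (limma) of each tested subunit, complex I assembly factor and complex IV isoform gene in the 4 comparisons of 2 groups, with red for up, blue for down and grey for not called. In KO against WT normal liver most subunits lie above 0 and Sdha of complex II is the lone fall, while in both comparisons of tumor with normal liver all 74 subunits lie below 0 on the deposited scale (48 and 69 after rescaling to a common sum).

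In complex I most genes that rose encode accessory subunits, which surround the catalytic core and are 29 of its 36 subunits. Of the 29 accessory subunits 13 rose. The median change was 0.38 over the accessory and 0.35 over the 7 core subunits, and whether core and accessory subunits differ was not tested. Ndufb3 (chromosome 1, 58586384 to 58595964, GRCm38), a small subunit of the membrane arm, was at 113, 114 and 108 FPKM in WT livers 1, 2 and 3 and at 188, 203 and 162 in KO livers 1, 2 and 3 (0.71 ± 0.12, limma adjusted p = 0.0145). Ndufb4, also of the membrane arm, was at 76.1, 87.1 and 71.0 in WT and 105, 175 and 143 in KO livers (0.82 ± 0.19, limma adjusted p = 0.0324). For both genes the lowest KO liver exceeded the highest WT liver.

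Ndufs1, of the arm that carries electrons to ubiquinone, was at 53.0, 48.7 and 58.6 in WT and 52.3, 42.9 and 46.4 in KO livers and overlapped (-0.18 ± 0.12, limma adjusted p = 0.336).

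Ndufv1, the flavin subunit that takes electrons from NADH, stood at 0.24 ± 0.11 (limma adjusted p = 0.167) and Ndufb8, an accessory subunit much used as a marker of complex I, at 0.38 ± 0.12 (limma adjusted p = 0.0628). KO livers lay above WT livers in both, although neither passed. A further 11 accessory subunits rose, by 0.40 (Ndufa11) to 0.60 (Ndufa6), among them Ndufa7, Ndufs5, Ndufa8, Ndufs6, Ndufa13, Ndufb10, Ndufb9, Ndufb7 and Ndufc2. None of the 7 assembly factors of complex I was called, and their changes ran from -0.06 to 0.67.

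Complex II, which also works in the citrate cycle, held the only fall. Sdha (chromosome 13, 74322254 to 74350280, GRCm38), the flavin subunit that oxidizes succinate, was at 247, 210.3 and 242 FPKM in WT livers 1, 2 and 3 and at 178, 161 and 146 in KO livers 1, 2 and 3, a fall by 0.53 ± 0.12 (limma adjusted p = 0.0319). Every KO liver lay below every WT liver. Sdhb, the iron-sulfur subunit bound to it, was at 219.7, 237 and 242 in WT and 296, 271 and 337 in KO livers, so KO was higher in 3 of 3 libraries but did not pass (0.36 ± 0.12, limma adjusted p = 0.0726). Sdhc and Sdhd, the membrane anchors, were also higher in every KO liver and not called.

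The ratio of Sdha to Sdhb was 1.13, 0.887 and 0.999 in WT livers 1, 2 and 3 and 0.60, 0.59 and 0.43 in KO livers 1, 2 and 3. The same ratio was 0.79, 0.70 and 0.75 in WT tumors and 0.59, 0.35 and 0.50 in KO tumors, again without overlap between genotypes. These ratios were chosen after the values were seen and are given without a test.

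**Figure D2:**
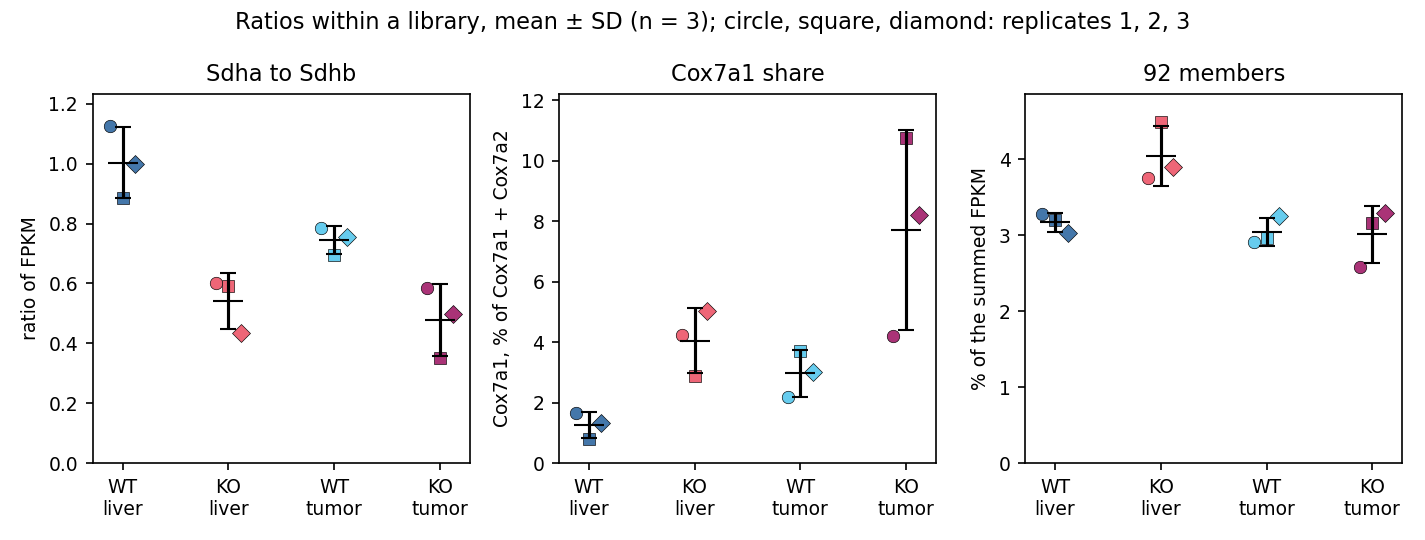
Sdha to Sdhb, Cox7a1 as a percentage of Cox7a1 plus Cox7a2, and the 92 genes as a percentage of the summed FPKM, in each of the 12 libraries with mean ± SD (n = 3). The ratio of Sdha to Sdhb is 0.43 to 0.60 in KO livers against 0.89 to 1.13 in WT livers, and the share of the 92 genes is highest in KO livers (3.75 to 4.49%).

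In complex III, 3 small subunits among 8 passed the test, and Uqcrb, Uqcrh, the 2 core proteins and the Rieske protein did not. Uqcr11 (chromosome 10, 80402997 to 80406830, GRCm38) was at 395, 447 and 381 FPKM in WT and 644, 679.6 and 587 in KO livers (0.64 ± 0.12, limma adjusted p = 0.0194). Uqcr10 changed by 0.59 ± 0.14 and Uqcrq, which binds ubiquinone with cytochrome b, by 0.51 ± 0.13 (limma adjusted p = 0.0312 and 0.0389). Uqcrc2, a core protein, was at 155, 154 and 165 in WT and 165, 167 and 145 in KO livers (0.01 ± 0.11, limma adjusted p = 0.975), and its sign differed between alternative settings. Uqcrfs1, the Rieske iron-sulfur protein, stood at 0.08 ± 0.10 (limma adjusted p = 0.568).

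In complex IV, which reduces oxygen, 2 nuclear subunits rose among 11 and all 11 changes were above 0. Cox6c was at 522, 550.4 and 574 FPKM in WT and 718, 901 and 809 in KO livers (0.55 ± 0.13, limma adjusted p = 0.0304). Cox6a1 changed by 0.42 ± 0.11 (limma adjusted p = 0.0472). Cox4i1, a regulatory subunit that binds ATP, and Cox5a stood at 0.40 ± 0.12 and 0.38 ± 0.11 (limma adjusted p = 0.0588 and 0.0521), and KO livers lay above WT livers in 10 of the 11 genes.

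In complex V the called genes belong to the stalk and membrane part. Of 10 stalk and membrane subunits 3 rose, and of 5 subunits of the F1 head 0. Atp5o, a stalk subunit that confers sensitivity to oligomycin, was at 241, 272 and 246 FPKM in WT and 373, 413 and 378 in KO livers (0.62 ± 0.11, limma adjusted p = 0.0173). Atp5g3, a gene of subunit c of the rotating ring, was at 713, 765 and 689.9 in WT and 1069, 1059.7 and 998 in KO livers (0.53 ± 0.11, limma adjusted p = 0.0245), and Atp5h, of the peripheral stalk, changed by 0.47 ± 0.10. The head subunits Atp5a1 and Atp5b stood at 0.08 ± 0.11 and 0.06 ± 0.13 (limma adjusted p = 0.649 and 0.768), with WT and KO livers overlapping. Whether head and stalk differ was not tested.

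**Figure D3:**
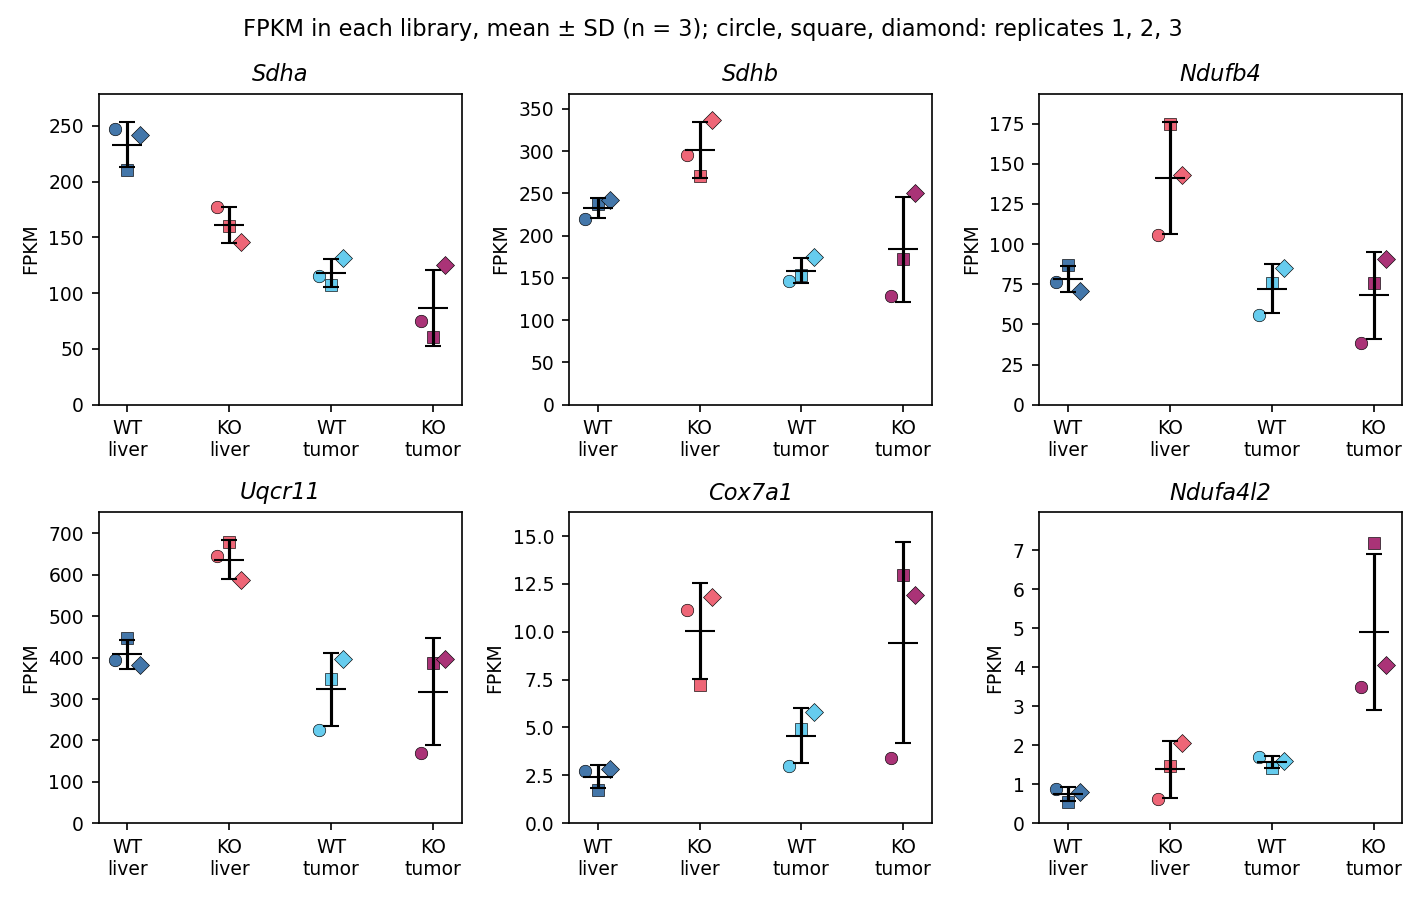
FPKM of 6 genes in each of the 12 libraries with mean ± SD (n = 3). Ndufb4, Uqcr11 and Cox7a1 are higher and Sdha is lower in all KO livers than in all WT livers, Sdhb is higher in KO livers without a call, and Ndufa4l2 is highest in the 3 KO tumors (3.48 to 7.20).

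Promoter sequences of 4 genes that were called in normal liver are shown because they rose or fell in that comparison: Uqcr11 and Atp5g3, which rose, Sdha, which fell, and Cox7a1, the isoform gene with the largest rise. They are RefSeq sequences of build GRCm38.p6, 5′ to 3′ on the strand of the gene, up to 250 bases upstream of the start and cut where an annotated transcript begins. Capitals mark matches to motifs searched on both strands.
Uqcr11, chr10:80406831-80407071, minus strand: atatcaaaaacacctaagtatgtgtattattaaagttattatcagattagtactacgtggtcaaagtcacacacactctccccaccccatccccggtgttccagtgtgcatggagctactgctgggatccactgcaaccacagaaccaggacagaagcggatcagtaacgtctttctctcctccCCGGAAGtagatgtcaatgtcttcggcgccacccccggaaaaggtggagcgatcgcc
Atp5g3, chr2:73911327-73911576, minus strand: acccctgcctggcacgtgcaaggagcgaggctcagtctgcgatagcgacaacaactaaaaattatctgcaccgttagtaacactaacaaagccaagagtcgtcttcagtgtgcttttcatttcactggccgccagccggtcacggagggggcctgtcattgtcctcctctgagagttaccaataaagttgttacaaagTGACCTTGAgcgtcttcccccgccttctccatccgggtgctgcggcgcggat
Sdha, chr13:74350281-74350490, minus strand: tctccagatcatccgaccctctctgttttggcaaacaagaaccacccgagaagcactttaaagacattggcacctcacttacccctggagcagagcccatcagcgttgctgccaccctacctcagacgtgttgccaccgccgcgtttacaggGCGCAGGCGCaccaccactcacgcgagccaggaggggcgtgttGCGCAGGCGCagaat
Cox7a1, chr7:30183921-30184143, plus strand: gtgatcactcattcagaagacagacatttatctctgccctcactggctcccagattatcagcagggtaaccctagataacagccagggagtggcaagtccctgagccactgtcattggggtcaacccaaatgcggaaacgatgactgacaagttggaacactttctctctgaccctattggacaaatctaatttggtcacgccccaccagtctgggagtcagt

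The capitals are 1 ETS match (CCGGAAG) in Uqcr11, 1 match of the estrogen-related receptor motif (TCAAGGTCA, here on the other strand) in Atp5g3, and 2 NRF1 matches in Sdha, where the capitals spell the motif searched with its middle base free. Cox7a1 held none of the 4 motifs searched. The motifs do not overlap one another in these windows. Of the 92 genes 73 had a RefSeq promoter of 250 upstream bases, of which 19.2% held the NRF1 motif and 17.8% the ETS motif, against 4.23% and 7.83% of the promoters of 27025 genes. The YY1 motif (AAGATGGCG) and the estrogen-related receptor motif each occurred in 1 of the 73 (1.37%), against 0.711% and 0.422%. The NRF1 motif was in 7 of 19 promoters of genes that rose in KO liver and in 7 of 53 of the other tested genes, the ETS motif in 4 and 9, the YY1 motif in 0 and 1 and the estrogen-related receptor motif in 1 and 0. A match describes letters and not binding, and the difference between these shares was not tested.

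Changes in KO normal liver varied with transcript length across all entries, and most of these genes have short transcripts. The 86 tested genes with a length in GENCODE vM21 had a median of 759 bases, against 2543 over 10078 tested entries, and 66 of the 86 lay in the shortest of 5 equal groups of entries by length (66 to 1434 bases). In that group the median change of all entries was 0.25 and 19.8% of them were up, while in the longest group the median was -0.16 and 2.43% were up. The genes described here had a median of 0.38 in the shortest group, with 21 of 66 up. Across entries Spearman's rho between change and length was -0.34, and -0.53 across the 86 genes, which share libraries and are not independent replicates.

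When each library's trend with transcript length was removed, the median change of the 86 genes was 0.06, and 3 calls remained of 24. Among them were Cox7a1 (1.23 ± 0.25) and Sdha (-0.47 ± 0.13), with limma adjusted p of 0.0259 and 0.0492. Sdha, at 2900 bases, is among the longest of the 86. Length and other properties that go with it cannot be told apart in these tables. The count of 24 was also sensitive to single libraries. It was 6, 4 and 1 without WT liver 1, 2 and 3 and 8 and 7 without KO livers 2 and 3, and it was 1 in a fit of all 12 libraries. Cox7a1 was the 1 gene called in all 6 runs that left out a normal liver.

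**Figure D4:**
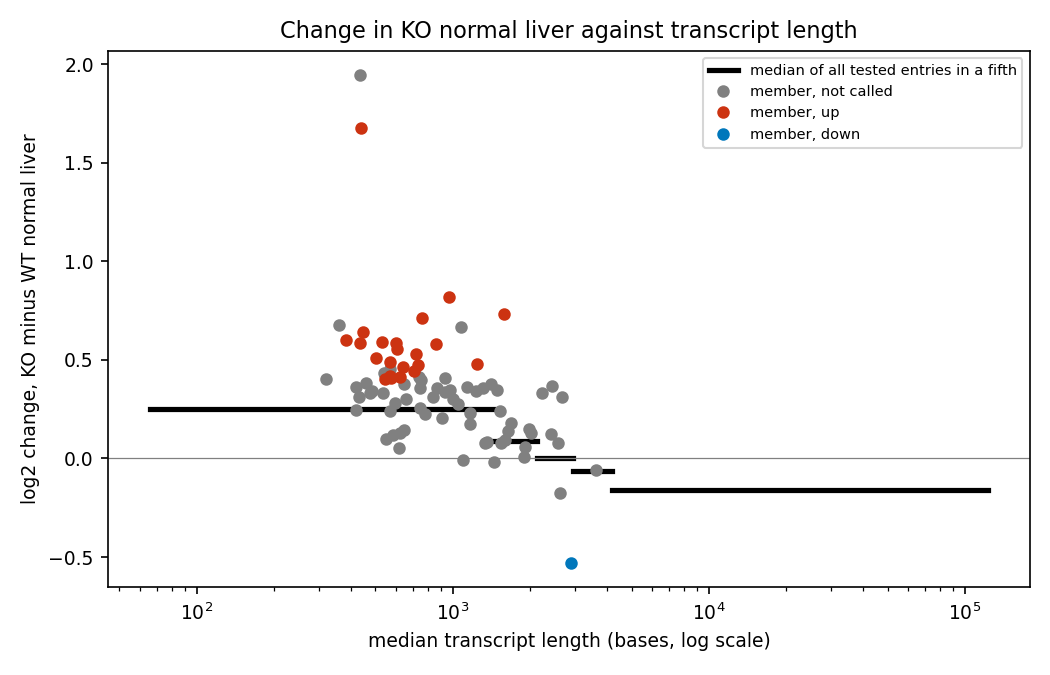
log2 change in KO against WT normal liver (vertical axis) against median transcript length in bases (log scale) for the 86 genes with a length, with black bars for the median of all tested entries in each of 5 equal length groups, drawn from its shortest to its longest entry. The bars step down from 0.25 to -0.16, and most of the 86 genes lie in the shortest group.

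Isoform genes of complex IV subunits known from heart, skeletal muscle and testis were low in every group, and 1 of them rose in KO normal liver. Cox7a1 (chromosome 7, 30184144 to 30186078, GRCm38), the heart and muscle form of subunit 7a, was at 2.72, 1.73 and 2.84 FPKM in WT livers 1, 2 and 3 and at 11.1, 7.20 and 11.8 in KO livers 1, 2 and 3 (1.68 ± 0.22, limma adjusted p = 0.0105). It was at 2.99, 4.90 and 5.83 in WT tumors and 3.41, 12.97 and 11.9 in KO tumors, which overlap (0.77 ± 0.46, limma adjusted p = 0.446). Its share of Cox7a1 plus the liver form Cox7a2 was 0.81 to 1.66% in WT livers, 2.88 to 5.02% in KO livers, 2.17 to 3.72% in WT tumors and 4.20 to 10.7% in KO tumors. The other muscle and brown fat genes checked summed to at most 0.379 FPKM in any library.

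The other isoforms stayed far below their liver forms. Cox4i2 reached 1.96 FPKM in KO tumor 2 and at most 0.574 elsewhere, against 349 to 1181 for Cox4i1. Cox6a2 was at most 0.944 (Cox6a1, 322 to 1049), Cox8b at most 1.64 (Cox8a, 372 to 712), and Cox7b2 and Cox8c were listed at 0 in all 12 libraries. The entry that joins Cox6b2 with Fam71e2 was at 0.249 to 0.517 in WT livers, 0.493 to 11.8 in KO livers, 0.268 to 8.54 in WT tumors and 2.74 to 9.31 in KO tumors, and reads of both genes cannot be told apart in it. Subunit c of complex V is encoded by 3 genes, of which Atp5g3 held 67.8 to 70.4% of their summed FPKM in WT livers, 71.1 to 74.8% in KO livers, 67.1 to 69.7% in WT tumors and 56.2 to 68.9% in KO tumors. Atp5g2 shares its entry with the microRNA gene Mir688. Cox7a2l, which links complexes III and IV in supercomplexes, was called in no comparison, at 85.6 ± 7.06, 85.4 ± 9.20, 87.0 ± 6.54 and 87.9 ± 8.57 (SD, n = 3) in WT liver, KO liver, WT tumor and KO tumor.

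WT tumors had less RNA of these genes than WT livers on the deposited scale. The change was below 0 for all 74 subunits, 11 of the 88 tested genes were down and 1 was up, while 8.96% of all entries were down and 8.01% up. WT tumors lay below all WT livers for 49 of the 88, against 23.8% of entries, and above them for 2, against 18.5%. The median was -0.34, and -0.04 over all entries. By complex, the falls were 3 of 36 in complex I, 2 of 4 in II, 2 of 8 in III, 1 of 11 in IV and 2 of 15 in V, with 1 assembly factor, so that complexes I and IV were near the share of all entries. After rescaling to a common sum, 1 fall was left among subunits, that of Sdha in complex II. In the same comparison 3 of 7 stellate cell genes, 2 of 3 B and plasma cell genes and 4 of 4 proliferation genes were up, and of 8 hepatocyte genes 1 was up and 2 were down; their part in the result was not tested.

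Sdha led these falls, with 115, 107 and 132 FPKM in WT tumors 1, 2 and 3 against 210.3 to 247 in WT livers (-0.98 ± 0.13, limma adjusted p = 0.00716). It alone was called whichever of the 6 libraries was left out. Its partner Sdhb was at 146, 154 and 175 in WT tumors (-0.56 ± 0.12, limma adjusted p = 0.0263). Of the catalytic head of complex V, Atp5b (-0.57 ± 0.15) and Atp5a1 (-0.55 ± 0.14) fell, 2 of 5 subunits, and in complex I Ndufv1 (-0.63 ± 0.15) and Ndufs1 (-0.54 ± 0.11) fell, with limma adjusted p of 0.021 to 0.0433 for the 4 genes.

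In complex III, Uqcrb (-0.57 ± 0.13) and the core protein Uqcrc2 (-0.52 ± 0.12) fell. Cox7b of complex IV fell as well (-0.52 ± 0.13), as did Ndufaf1 (-0.63 ± 0.13), an early assembly factor of complex I, and Ndufa9, an accessory subunit near the ubiquinone site. Cox4i1, Cox5a, Uqcrfs1 and Ndufb8 stood at -0.48, -0.30, -0.35 and -0.34 and were not called. On the deposited scale tumor 1 was the lowest WT tumor for 65 of 74 subunits and tumor 3 the highest for 66. These 2 libraries also had the lowest and highest summed FPKM among WT tumors (495141 and 596624). Whether other entries followed the same order was not tested.

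How far tumors fell depended on the scale. Rescaling each library to a common sum (TPM) raised the median change of all entries from -0.04 to 0.21 in WT tumors and from -0.02 to 0.34 in KO tumors against their normal livers, and from 0.02 to 0.12 between KO and WT tumors. The median of the genes described here was then -0.04 in WT tumors, with 2 up and 1 down, and 26 of the 74 subunits were then above 0. Relative to the median of all entries, the 88 genes were lower by 0.30 as deposited (-0.297) and by 0.25 after rescaling (-0.246), and 80 and 78 of the 88 lay below it. Over all entries, calls up and down were 935 and 1046 as deposited and 1607 and 400 after rescaling. Sdha was called on both scales.

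**Figure D5:**
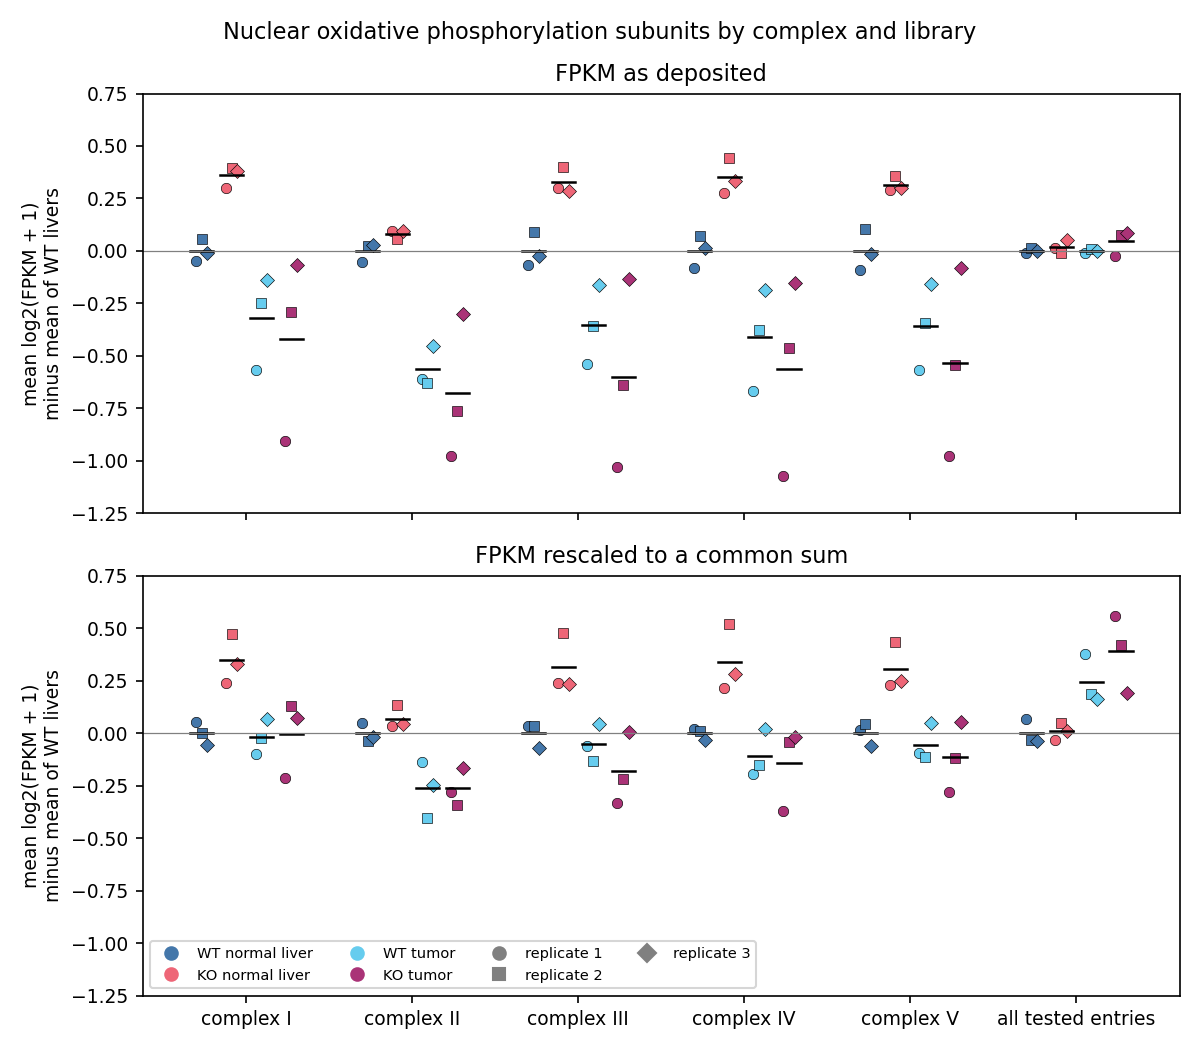
Mean log2(FPKM + 1) of the subunits of each complex, and of all 11671 tested entries, in each library minus the mean of the 3 WT livers, as deposited (top) and after rescaling to a common sum (bottom), with black bars for group means. KO livers are highest in complexes I, III, IV and V on both scales, while the tumors' distance from WT livers shrinks in the lower panel as all entries shift up.

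KO tumors were also below KO livers for all 74 subunits on the deposited scale, and they were spread widely. Averaged over 74 subunits and relative to WT livers, log2 values were 0.28, 0.38 and 0.33 in KO livers 1, 2 and 3, -0.58, -0.32 and -0.17 in WT tumors 1, 2 and 3, and -0.96, -0.43 and -0.10 in KO tumors 1, 2 and 3. After rescaling they were 0.22, 0.45 and 0.28 in KO livers, -0.11, -0.09 and 0.04 in WT tumors and -0.26, -0.01 and 0.04 in KO tumors. On the deposited scale KO tumor 1 was the lowest KO tumor for 67 of 74 subunits and KO tumor 3 the highest for 61. Their summed FPKM was also the lowest and highest among KO tumors (423498 and 626303). The median SD over subunits on that scale was 0.48 among KO tumors, against 0.10 among WT livers, 0.12 among KO livers and 0.22 among WT tumors. Over all tested entries it was 0.31 among KO tumors, against 0.16, 0.17 and 0.19 in those 3 groups, so KO tumors also varied most there.

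Between KO tumors and KO livers 11 of 88 genes were down and 1 was up, against 5.17% and 9.09% of all entries. KO tumors lay below all KO livers for 69 of the 88 (19.8% of entries) and above them for 2 (21.3%). The median was -0.83, or -0.81 relative to all entries, and -0.41 and -0.74 after rescaling, with 84 of 88 genes below the median of all entries on both scales. After rescaling, 1 gene was down and 1 up, and calls over all entries were 1686 up and 260 down instead of 1061 and 603.

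Complex IV showed the largest falls among subunits that were called. Cox7a2, the liver form of subunit 7a, was at 251, 243 and 224 FPKM in KO livers 1, 2 and 3 and at 77.7, 108 and 134 in KO tumors 1, 2 and 3 (-1.19 ± 0.25, limma adjusted p = 0.0255). Cox7b was at 246, 317 and 232 in KO livers and 103, 100.2 and 146 in KO tumors (-1.19 ± 0.25, limma adjusted p = 0.0254). Both groups were fully apart in each gene, and Cox7a2 was called after rescaling too.

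Among the other complexes, Sdhd, a membrane anchor of complex II, fell from 197, 212 and 201 FPKM in KO livers to 89.7, 85.9 and 125 in KO tumors (-1.03 ± 0.22, limma adjusted p = 0.027). Atp5j of the stalk (-1.004 ± 0.25) and Atp5c1, the rotating shaft of the head (-0.89 ± 0.22), fell in complex V, and Uqcrc2 in complex III (-0.90 ± 0.24). In complex I, Ndufb5 (-0.97 ± 0.23) and Ndufa12 (-0.83 ± 0.22) fell with the assembly factors Ndufaf1 (-0.85 ± 0.16) and Ndufaf4, and Atp5sl fell by 0.91 ± 0.22. Limma adjusted p of these 8 genes was 0.0221 to 0.0497. Atp5j overlaps Gabpa, which was at 3.604 to 5.19 FPKM in these 6 libraries.

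The marker subunits Sdha (-0.95 ± 0.29), Sdhb (-0.76 ± 0.29), Cox4i1 (-1.005 ± 0.36), Cox5a (-1.03 ± 0.29), Atp5a1 (-0.86 ± 0.28), Atp5b (-0.76 ± 0.26), Uqcrfs1, Ndufv1 and Ndufb8 were lower in every KO tumor than in every KO liver and not called. Ndufs1 overlapped (-0.32 ± 0.20, limma adjusted p = 0.306). The count of 12 calls in KO tumors became 63 without KO tumor 3 and 0 without KO tumor 1 or any 1 of the KO livers, and 1 without KO tumor 2. It was 63 in a fit of all 12 libraries, where the spread of KO tumors is averaged with that of the other groups. Calls over all entries also varied widely between these runs. In the same comparison 6 of 9 macrophage, 4 of 7 stellate cell, 3 of 4 proliferation and 2 of 5 cholangiocyte genes were up. Of 6 endothelial genes 1 was up, and of 8 hepatocyte and 3 erythroid genes 1 each was down. The part of these marker genes in the result was not tested.

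Cox7b, Ndufaf1 and Uqcrc2 were down and Ndufa4l2 was up in both comparisons of tumor with normal liver on the deposited scale. After rescaling to a common sum, Ndufa4l2 was still called in both, and Cox7b, Ndufaf1 and Uqcrc2 in neither. Ndufa4l2 (chromosome 10, 127514967 to 127517154, GRCm38), a paralog of Ndufa4 known as a target of hypoxia signaling, was at 0.89, 0.53 and 0.80 FPKM in WT livers, 0.62, 1.47 and 2.06 in KO livers, 1.71, 1.41 and 1.59 in WT tumors and 3.48, 7.20 and 4.05 in KO tumors. The change was 0.57 ± 0.14 in WT tumors and 1.31 ± 0.31 in KO tumors (limma adjusted p = 0.0345 and 0.037), and all 3 KO tumors exceeded the other 9 libraries. Ndufa4 itself was lower in every KO tumor (467 to 839) than in every normal liver (857 to 1412) on the deposited scale. The Ndufa4l2 locus overlaps the far more abundant Shmt2 (55.3 to 198 FPKM) in libraries without strand. Shmt2 was at 55.3, 113 and 143 in KO tumors 1, 2 and 3 and 62.2, 95.6 and 97.3 in WT tumors 1, 2 and 3, and its part in the Ndufa4l2 values was not tested.

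Between KO and WT tumors none of the 88 genes was called by limma, against 9 of 11671 entries (0.0771%). At an unadjusted p below 0.05 there were 2 of the 88 (Ndufa4l2 and Ndufaf7), against 17.6% of entries. The median was -0.11, it was 0.01 after rescaling, where the median of all entries was 0.12, and it was 0.11 without KO tumor 1. Relative to all entries the genes were lower by 0.13 (-0.126) as deposited and 0.11 (-0.111) after rescaling. Ndufa4l2 was higher in all 3 KO tumors and did not pass (1.15 ± 0.25, limma adjusted p = 0.0974), and a fit of all 12 libraries called it. Ndufaf7, an assembly factor that methylates a complex I subunit, stood at 0.48 (limma adjusted p = 0.23).

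For the marker subunits the spread of KO tumors was wide. Sdha was at 75.1, 60.4 and 125 FPKM in KO tumors and overlapped with WT tumors (-0.50 ± 0.29, limma adjusted p = 0.433). Sdhb was at 128, 172 and 251 (0.17 ± 0.28), and its sign changed without KO tumor 3, as did that of Ndufv1 (0.04 ± 0.31). Ndufb8, Cox4i1, Cox5a, Uqcrc2, Uqcrfs1, Atp5a1 and Atp5b stood between -0.37 and -0.13 with an SE of 0.24 to 0.37, so differences of this size were not detectable among these tumors. Ndufs1 (0.05 ± 0.19) was close to 0.

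The KO effect in tumors minus that in normal liver was negative for most of the genes, with a median of -0.51 (0.02 over all entries) and 0 of 88 called by limma in the interaction test, where 2.08% of entries were. At an unadjusted p below 0.05 there were 12 of 88, against 22.3% of entries. Without KO tumor 3 there were 18 calls, all negative, and the median was -0.69. Without KO tumor 1 there were 0 calls and the median was -0.27. Calls over all entries also varied widely when 1 library was left out, so these counts cannot be read as particular to these genes. With the length trend removed the median was -0.28. By size the most negative were Cox8b (-1.08 ± 0.54), Cox6b2 in its joined entry (-1.08 ± 1.14), Ndufb4 (-0.97 ± 0.43), Uqcrq (-0.91 ± 0.43) and Cox7a1 (-0.91 ± 0.56), and the most positive were Ndufa4l2 (0.74 ± 0.36), Ndufs1 (0.22 ± 0.22), Ndufaf7, Ndufa10 and Atp5s. Their limma adjusted p was 0.21 to 0.907.

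Separate groups in both tissues, with KO higher in normal liver and lower in tumors, were seen for 1 of the 88 genes (1.14%), against 1.19% of all entries. That gene is Ndufa1, a small X-linked membrane subunit of complex I. Its FPKM was 192, 194 and 187 in WT livers, 213, 259 and 212 in KO livers, 169.7, 169.8 and 195 in WT tumors and 86.0, 119.6 and 166 in KO tumors. The interaction was -0.82 ± 0.30 and did not pass (limma adjusted p = 0.149).

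Other genes of the pathway were read from lists that do not use the name rule. Of 5 further subunit and subunit-linked genes 2 rose in KO liver, Usmg5, a membrane subunit of complex V (0.51 ± 0.14), and Atpif1, its inhibitor (0.58 ± 0.13), and neither was called with the length trend removed. Of 39 tested assembly factors outside the name rule 10 rose and 0 fell in KO liver, against 9.33% and 8.77% of all entries, with a median of 0.14. With the length trend removed 3 of 35 were up, Acad9, Cox19 and Sdhaf1, and the median was 0.04. The largest was Sdhaf1, which helps insert iron-sulfur clusters into Sdhb, at 10.8, 8.26 and 5.81 FPKM in WT and 22.3, 33.9 and 33.4 in KO livers (1.74 ± 0.24, limma adjusted p = 0.0113). Cox19 (0.91) and Uqcc3 (0.67) rose as well.

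Among 14 tested regulators of mitochondrial genes 1 rose and 2 fell in KO liver, close to the 9.33% and 8.77% of all entries. Esrra, which encodes the estrogen-related receptor alpha, was at 8.61, 8.34 and 6.31 FPKM in WT and 14.1, 16.0 and 18.1 in KO livers (0.97 ± 0.16, limma adjusted p = 0.0141). Gabpa (-0.67 ± 0.13) and Yy1 (-0.52 ± 0.11) fell, Yy1 without a call once the length trend was removed. Esrra also rose in WT tumors (0.73 ± 0.14), while Yy1 fell there on the deposited scale (-0.49 ± 0.11) and was not called after rescaling.

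Of 15 citrate cycle enzymes, which feed the chain with NADH and succinate, 1 fell in KO liver (Idh3b, -0.46 ± 0.10), against 8.77% of all entries. On the deposited scale 8 fell in WT tumors, against 8.96% of all entries, and after rescaling 1 did (Fh1). On the deposited scale Fh1, the fumarase that follows complex II, went furthest (-1.22 ± 0.23). In KO tumors against KO livers 1 of the 15 fell as deposited and 0 after rescaling. Atpif1 rose in both tumor comparisons (1.01 ± 0.22 in WT and 1.18 ± 0.26 in KO), and Sdhaf1 rose in WT tumors (1.08 ± 0.21). In the comparison of KO with WT tumors no member of these 4 lists was called by limma.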

How the data were processed

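Libraries were made from poly(A) RNA by a non-directional method (labels' protocols). For each library the authors deposited gene-level FPKM values, and TopHat2 2.1.1, Cufflinks 2.2.1 and build mm10 are named in the submitters' processing notes. Their options, and the annotation, are not stated in these sources. Depth is unknown, since the values are not multiples of a common step, and no counting interval is given.

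Libraries were grouped by the labels' genotype and tissue, 3 per group. Entries with an FPKM of at least 1 in at least 3 of 12 libraries were kept (11671 of 24553). log2(FPKM + 1) was fitted with limma 3.58.1 in R 4.3.3 (moderated with a variance trend), each comparison of 2 groups on its own 6 libraries and the interaction on 12. P-values were adjusted by Benjamini-Hochberg over all tested entries, and the script was tested on simulated data. Alternatives were a pseudocount of 0.1, no filter, a common sum (TPM), median-of-ratios scaling, all 12 libraries in 1 fit, a replicate block, removal of each library's trend with GENCODE vM21 transcript length (loess, span 0.3), 10 improbable zeros as missing, and leaving out each library.

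The members and lists were chosen with earlier results of these data known. Per comparison and complex, up to 3 called genes in each direction with the largest change and no overlap of groups are named, with fixed textbook subunits, isoform pairs and the extremes of the interaction. Further called genes and ratios were named after their values were seen. Overlapping genes cannot be separated without strand (26 of the 92 overlap another coding gene). The values of 1 gene are not reported here.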

Additional observations from a re-analysis of the deposited data

Results flagged for a closer look

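On the deposited scale, limma's interaction test called 2 of 39 tested assembly factors outside the name rule, against 2.08% of all entries. After rescaling to a common sum 0 of the 39 were called, so the 2 calls depend on the scale. For Timmdc1, an assembly factor of complex I, the difference was -0.963 (adjusted p = 0.0296). Its FPKM was 15.9, 15.4 and 13.7 in WT livers, 17.3, 18.8 and 17.9 in KO livers, 15.6, 15.2 and 15.8 in WT tumors and 8.00, 8.75 and 10.7 in KO tumors.

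For Sdhaf1, an assembly factor of complex II, the difference was -1.87 (limma adjusted p = 0.0422). Its FPKM was 10.8, 8.26 and 5.81 in WT livers, 22.3, 33.9 and 33.4 in KO livers, 17.5, 16.3 and 20.8 in WT tumors and 13.6, 12.8 and 25.9 in KO tumors. The KO effect was 1.74 in normal liver and -0.12 in tumors.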

How the results depend on the processing

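Of the 24 calls among the 92 genes in KO normal liver, 11 were made without the filter, 1 in the fit of 12 libraries, 3 with the length trend removed and 1 to 17 when 1 library was left out. The median was 0.064 with length removed and 0.31 to 0.40 without 1 library. In WT tumors the 12 calls became 3 after rescaling to a common sum, 3 in the fit of 12, 40 with length removed and 1 to 11 without 1 library, with a median of -0.035 after rescaling. In KO tumors against KO livers the 12 became 4 without the filter, 2 after rescaling, 63 in the fit of 12, 28 with length removed and 0 to 63 without 1 library, with a median of -0.41 after rescaling. Between tumors the fit of 12 made 1 call, and the median was 0.0081 after rescaling and -0.34 to 0.11 without 1 library. The interaction made 0 to 18 calls without 1 library.

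Over all entries, the 2113 calls in KO normal liver became 1355 without the filter, 1144 in the fit of 12, 1359 with length removed and 240 to 1964 without 1 library. The 9 between tumors became 1, 1017 and 27 in those settings, 24 after rescaling, 16 with median-of-ratios scaling and 0 to 266 without 1 library. The 1981 in WT tumors became 1105 in the fit of 12 and 454 to 2134 without 1 library. The 1664 in KO tumors became 852 without the filter, 3340 in the fit of 12 and 129 to 2981 without 1 library. The 243 of the interaction became 56 without the filter, 120 after rescaling and 7 to 1368 without 1 library.

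With the replicate number as a block, calls among the 92 genes were 1 in KO normal liver, 2 in WT tumors and 4 in KO tumors, and over all entries 153 in KO normal liver, 0 between tumors, 1235 in WT tumors and 114 in the interaction. Same-numbered libraries deviated together with r of -0.276 to 0.347, the highest for KO and WT tumor 1, which correlated best with each other. In no comparison did every library correlate best with its own number. With 3 libraries per group, these correlations cannot decide whether the numbers pair the samples.

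Signs turned in KO normal liver for Uqcrc2 (-0.0062 after rescaling, -0.062 with length removed, -0.031 to 0.069 without 1 library), Uqcrfs1 (-0.070 with length removed) and Atp5b (-0.0045 with length removed, -0.034 to 0.16 without 1 library). After rescaling, Cox5a stood at 0.0029 in WT tumors and Ndufs1 at 0.11 in KO tumors. Without 1 library, ranges between tumors were -0.090 to 0.18 for Ndufs1, -0.18 to 0.35 for Ndufv1, -0.48 to 0.094 for Ndufb8, -0.085 to 0.40 for Sdhb and -0.46 to 0.19 for Cox4i1, and in the interaction -0.089 to 0.19 for Atp5s and -0.24 to 0.51 for Ndufa10. Among values of named genes in the settings that kept all libraries, 520 stayed on their side of the threshold, whether called or not. A call was lost in 99 and gained in 13, and the sign turned in 6. In runs without 1 library 369 stayed, 145 lost and 9 gained a call, and the sign turned in 17. The cause of these shifts was not tested.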
